A study of Homo sapiens with 6 samples.

Results

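The metallothioneins and their zinc-sensing partners were followed in 12Z cells, an established line of human endometriotic epithelial cells. The 8 genes were taken by symbol from the deposited tables of 16279 genes. They are 6 metallothioneins (MT2A, MT1E, MT1F, MT1G, MT1M and MT1X), the transcription factor MTF1 and the zinc exporter SLC30A1, and all 8 had a row in both tables. The Control cells were not treated (n = 3 libraries). The other group received rhChem157S, a recombinant form of the human adipokine chemerin, at 10 ng/mL for 48 h by the study's methods (n = 3 libraries). No vehicle is named for the Control group. The labels call the libraries biological replicates and do not say whether each came from a separate culture, so p-values measure the spread between these libraries.

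Metallothioneins are small, cysteine-rich proteins that bind zinc and copper in the cytoplasm and take up metals such as cadmium. When free zinc rises, MTF1 binds zinc through its zinc fingers, enters the nucleus and switches on genes that carry metal response elements, among them the metallothioneins and SLC30A1. The metallothioneins also respond to glucocorticoids and to oxidants, and in the endometrium their levels vary over the menstrual cycle.

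Each library held from 35430881 to 38341643 counted reads. Library rhChem157S 3 stood apart from the other 5. Its median absolute difference from the Control mean was 0.363 on the log2 scale over all tested genes. This distance was 0.170 for rhChem157S 1 and 0.201 for rhChem157S 2, and each Control library lay from 0.0944 to 0.144 from the mean of the other two. The scaling factors of TMM, edgeR's correction for differences in RNA composition, were 1.04 to 1.05 in Control and 1.00, 0.973 and 0.898 in rhChem157S libraries 1 to 3. The labelled cell type was checked against marker genes. The keratins KRT8, KRT18 and KRT19 were abundant, with mean FPKM (read count divided by gene length and library total) of 820, 608 and 295 in Control. The epithelial adhesion genes EPCAM and CDH1 were close to absent, with 7 to 45 and 15 to 65 counts per library. The fibroblast collagen genes COL1A1 and COL3A1 were also abundant, at a mean FPKM of 1042 and 616 in Control. The summed FPKM of 8 stromal markers ran from 1703 to 2198 in Control and from 1170 to 2312 with rhChem157S. Among them PDGFRA was at 1.37 to 1.74 FPKM in Control and 2.09 to 3.10 FPKM with rhChem157S. It was higher in every treated library, as were 7.36% of all tested genes in FPKM, and the other stromal markers overlapped. In bulk RNA, fewer cells of a type and less RNA per cell cannot be told apart. The summed FPKM of 7 epithelial markers was 1596 to 1866 in Control and 1760 to 1976 with rhChem157S. In FPKM, EPCAM, CDH1 and MUC1 were lower in every treated library, as were 25.1% of all tested genes. The groups overlapped in KRT7, KRT8, KRT18 and KRT19 in FPKM. In counts scaled to library total (CPM) after TMM scaling, KRT8 and KRT19 were higher in every treated library, as were 16.5% of all tested genes. On that scale EPCAM and CDH1 were lower, as were 16% of all tested genes, and MUC1, KRT7 and KRT18 overlapped. The endothelial genes PECAM1 and CLDN5 and the leukocyte gene PTPRC had at most 12 counts in any library. Of the other endothelial markers, CDH5 had 11 to 21 counts per library. VWF had 159, 131 and 112 counts in Control libraries 1 to 3 and 64, 23 and 13 in rhChem157S libraries 1 to 3. In FPKM it was lower in every treated library, as were 25.1% of all tested genes. The 4 endothelial markers summed to 0.448 to 0.739 FPKM in Control and 0.157 to 0.295 FPKM with rhChem157S, and the 4 leukocyte markers in the tables to 122 to 171 and 92.7 to 136 FPKM. Among the latter, CD14 was at 36.9 to 51.5 FPKM in Control and 6.64 to 21.2 FPKM with rhChem157S. CD68, the largest part of that sum, overlapped, at 70.0 to 134 FPKM in Control and 80.2 to 121 FPKM with rhChem157S. The part of these markers in the results was not tested.

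The metallothioneins form a cluster on chromosome 16. The 6 genes lie between 56608199 and 56684196 on GRCh38 (GENCODE release 29), a span of 76.0 kb. MT1G is on the minus strand and the other 5 are on the plus strand. MTF1 (37809567 to 37859620) and SLC30A1 (211571568 to 211578742) are both on the minus strand of chromosome 1. None of the 8 genes shares exon bases with a gene annotated on the opposite strand. MT1X shares 321 exon bases with AC026461.1, a transcript on its own strand. The metallothionein transcripts resemble each other, and reads that match several copies could have been lost or divided in the authors' counting. In GENCODE transcripts, from 3.27% (MT1F) to 16.5% (MT1G) of the 50-base windows of MT2A, MT1E, MT1F, MT1G and MT1M also occurred in another gene, and 0 windows of 100 bases did. For MT1X the shares were 43.6% of the 50-base and 30.8% of the 100-base windows, and AC026461.1 held all of the latter.

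Promoter windows in the RefSeq table (GRCh38.p14), from 250 bases before to 50 after the gene start, were matched by symbol for 4 of the 8 genes: MT2A, MT1X, MTF1 and SLC30A1. They were searched for the core of the metal response element, the letters TGCACNC or TGCGCNC on either strand, with overlapping matches counted. At least 1 match is found in 29.6% of the 35116 windows in the table, at least 2 in 8.60% and at least 4 in 0.601%. MT2A held 8 matches, a number reached by 7 windows or 0.0199% of all. MT1X held 4, SLC30A1 held 2 and MTF1 held 0. The 250 bases before the start of the 3 genes with a match are shown because these are the letters that MTF1 is known to read. The matches are in capitals.

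MT2A, plus strand, chr16:56608334-56608583:
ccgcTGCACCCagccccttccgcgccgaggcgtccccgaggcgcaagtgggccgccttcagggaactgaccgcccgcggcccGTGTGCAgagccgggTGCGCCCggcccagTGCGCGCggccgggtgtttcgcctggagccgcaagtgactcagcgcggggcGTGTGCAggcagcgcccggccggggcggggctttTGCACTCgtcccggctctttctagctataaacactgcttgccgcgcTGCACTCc

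MT1X, plus strand, chr16:56682220-56682469:
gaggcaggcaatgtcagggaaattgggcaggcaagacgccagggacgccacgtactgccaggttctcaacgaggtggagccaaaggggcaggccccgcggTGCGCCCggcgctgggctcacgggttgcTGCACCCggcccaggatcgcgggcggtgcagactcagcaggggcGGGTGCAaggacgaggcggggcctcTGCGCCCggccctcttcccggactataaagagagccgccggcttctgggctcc

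SLC30A1, minus strand, chr1:211579162-211579411:
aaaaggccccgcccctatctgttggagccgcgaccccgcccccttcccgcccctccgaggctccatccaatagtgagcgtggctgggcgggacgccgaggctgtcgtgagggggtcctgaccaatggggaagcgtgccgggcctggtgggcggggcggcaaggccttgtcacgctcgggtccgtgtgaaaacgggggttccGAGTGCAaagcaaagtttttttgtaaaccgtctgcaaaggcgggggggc

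In MT2A, 7 of the 8 matches precede the start, and in SLC30A1 1 of 2 does. The 4 matches of MT1X lie from -150 to -47 relative to its start. The RefSeq start of SLC30A1 is upstream of the first base that GENCODE gives the gene. A match is a stretch of letters and was not tested as a binding site.

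**Figure D1:**
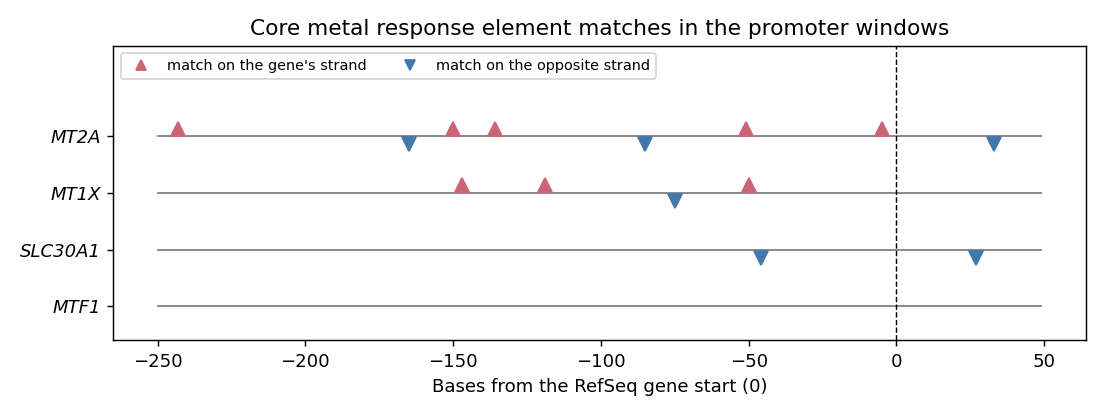
Positions of the core metal response element in the promoter windows of MT2A, MT1X, SLC30A1 and MTF1, in bases from the RefSeq gene start (dashed line); triangles pointing up are matches on the gene's strand and those pointing down on the opposite strand. MT2A has 8 matches, MT1X 4, SLC30A1 2 and MTF1 0.

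MT2A, the most abundant metallothionein here, was higher in each rhChem157S library than in each Control library. Its FPKM was 343, 337 and 351 in Control libraries 1 to 3 and 425, 931 and 1691 in rhChem157S libraries 1 to 3. The Control values lay close together and the treated libraries were spread widely, with rhChem157S 1 only a little above Control. Relative to the Control mean, the treated libraries stood at 1.24, 2.71 and 4.92. The order of the treated libraries in MT2A was also their order of distance from the Control mean over all genes, and the part of that distance in the result was not tested. Ranked by FPKM among all 16279 genes, MT2A was 92nd, 92nd and 87th in Control libraries 1 to 3, and 80th, 28th and 11th in rhChem157S libraries 1 to 3. The mean was 344 ± 7.34 FPKM (SD, n = 3) in Control and 1015 ± 637 FPKM (SD, n = 3) with rhChem157S, and the log2 fold change was 1.73 (standard error 0.46, 95% confidence interval 0.64 to 2.81). With an adjusted p of 0.117 (edgeR's quasi-likelihood test, Benjamini-Hochberg over 13311 genes), MT2A did not pass the threshold of 0.05. The study used DESeq2 and also required an absolute log2 fold change above 1. Fitted again here, DESeq2 gave MT2A an adjusted p of 0.0320, a call by adjusted p alone. That call was lost when any library other than rhChem157S 1 was left out, with adjusted p from 0.0676 to 0.233 in DESeq2, and was kept without rhChem157S 1 (adjusted p = 5.53e-14, DESeq2).

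MT1E, a metallothionein-1 isoform, showed the same order of treated libraries at a lower level. Its FPKM was 68.6, 81.4 and 69.5 in Control libraries 1 to 3 and 88.3, 130 and 208 in rhChem157S libraries 1 to 3. The groups did not overlap, and library rhChem157S 1 was again the nearest to Control. The treated libraries stood at 1.21, 1.78 and 2.84 relative to the Control mean. Its log2 fold change was 1.11 (standard error 0.32, 95% confidence interval 0.37 to 1.85), with an adjusted p of 0.125 from edgeR and 0.00780 from DESeq2. The DESeq2 call was lost without any 1 of the Control libraries (adjusted p = 0.0714, 0.0636 and 0.0779 without Control 1, 2 and 3) and kept without any 1 of the treated libraries (adjusted p = 6.70e-07, 0.0372 and 0.00689, DESeq2).

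Library rhChem157S 1 weighed on both adjusted p-values. Without it the log2 fold change was 2.10 for MT2A and 1.38 for MT1E, and the adjusted p from edgeR was 0.0266 and 0.0297. In that fit, 2.58% of 13517 genes were called as higher with rhChem157S. Without rhChem157S 3 the log2 fold changes were 1.07 and 0.66, and the adjusted p from edgeR was 0.0810 and 0.0786.

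**Figure D2:**
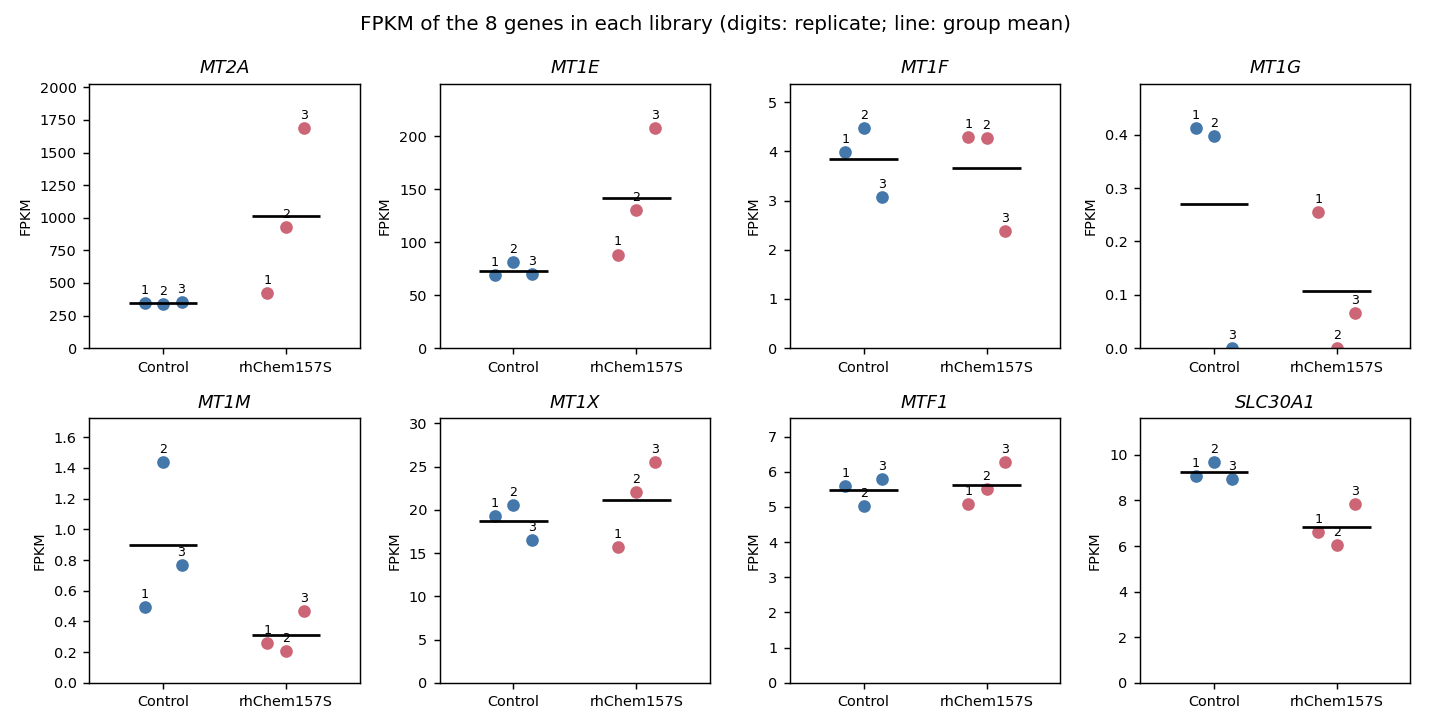
FPKM (vertical axes, each from 0) of the 8 genes in the 3 Control and 3 rhChem157S libraries; points are libraries, digits are replicate numbers and lines are group means. MT2A and MT1E are higher in every rhChem157S library, SLC30A1 and MT1M are lower in every one, and MT1F, MT1G, MT1X and MTF1 overlap. MT1M and MT1G did not pass the filter on low counts, and SLC30A1 overlaps in CPM after TMM scaling. In FPKM 25.1% of all tested genes were lower in this way.

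MT1X, another metallothionein-1 isoform, did not separate the groups. The FPKM was 19.3, 20.5 and 16.5 in Control libraries 1 to 3 and 15.7, 22.1 and 25.5 in rhChem157S libraries 1 to 3. The lowest treated library was below every Control library and the other two were above all of them. The log2 fold change was 0.31 (standard error 0.24, 95% confidence interval -0.25 to 0.87), with an adjusted p of 0.454 from edgeR. The bases that MT1X shares with AC026461.1 in GENCODE could limit what its counts can show. Whether the authors' annotation holds that transcript is not known here. The gene length behind the FPKM of MT1X was 404 bases, against 1773 exon bases in GENCODE.

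MT1F overlapped as well and was low, with 38 to 70 counts per library. It measured 3.98, 4.48 and 3.07 FPKM in Control libraries 1 to 3 and 4.30, 4.28 and 2.39 FPKM in rhChem157S libraries 1 to 3. The lowest value was in rhChem157S 3, the library in which MT2A and MT1E were highest. The fitted log2 fold change was 0.044 (standard error 0.34, 95% confidence interval -0.76 to 0.85; adjusted p = 0.949, edgeR), and it was -0.073 when only library size was used for scaling, so its direction is not set.

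MT1G and MT1M did not pass edgeR's filter on low counts. MT1G had 6, 6 and 0 counts in Control libraries 1 to 3 and 4, 0 and 1 in rhChem157S libraries 1 to 3. The 2 libraries without a read allow an MT1G level of up to 0.203 (Control 3) and 0.202 FPKM (rhChem157S 2), the value of 3 counts, for counting error alone. MT1M had 7, 21 and 11 counts in Control and 4, 3 and 7 in rhChem157S libraries. In FPKM the 3 treated libraries lay at 0.208 to 0.470, under the Control range of 0.496 to 1.44, while the lowest Control and the highest treated library both held 7 reads. When the filter was lifted, the log2 fold change was -1.35 for MT1M (standard error 0.77, adjusted p = 0.359 over 16279 genes, edgeR) and -1.15 for MT1G (standard error 1.37, adjusted p = 0.630). At this depth no difference between the groups was detectable in either gene. The list of the other metallothionein genes and pseudogenes has 14 names, of which the tables used here hold 2 and the filter kept 0. MT1H had at most 1 count in any library. MT3, known from neurons, had 1, 0 and 4 counts in Control and 7, 1 and 8 with rhChem157S, too few for a comparison.

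The metallothioneins together are a description, without a test. Summed over the 6 genes, the FPKM was 435, 445 and 441 in Control libraries 1 to 3 and 533, 1087 and 1927 in rhChem157S libraries 1 to 3. The group means were 441 ± 4.83 (SD, n = 3) and 1182 ± 702 (SD, n = 3), a ratio of 2.68. MT2A made up 75.7% to 79.6% of this sum in Control and 79.6%, 85.6% and 87.7% in rhChem157S libraries 1 to 3. Without MT2A the sum of the other 5 was 89.8 to 108 FPKM in Control and 109, 157 and 236 FPKM with rhChem157S, so the lowest treated library was level with the highest Control library. The ratio of MT2A to MT1E was 4.14 to 5.06 in Control and 4.81, 7.16 and 8.13 in rhChem157S libraries 1 to 3. In this ratio library rhChem157S 1 lay within the Control range. The ratio of MT1E to MT1X separated the groups, at 3.56 to 4.22 in Control and 5.63 to 8.16 with rhChem157S. The ratio of MT1E to MT1F overlapped, at 17.2 to 22.7 in Control and 20.5, 30.4 and 86.9 in rhChem157S libraries 1 to 3. How often the ratio of other gene pairs separates the groups was not examined.

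**Figure D3:**
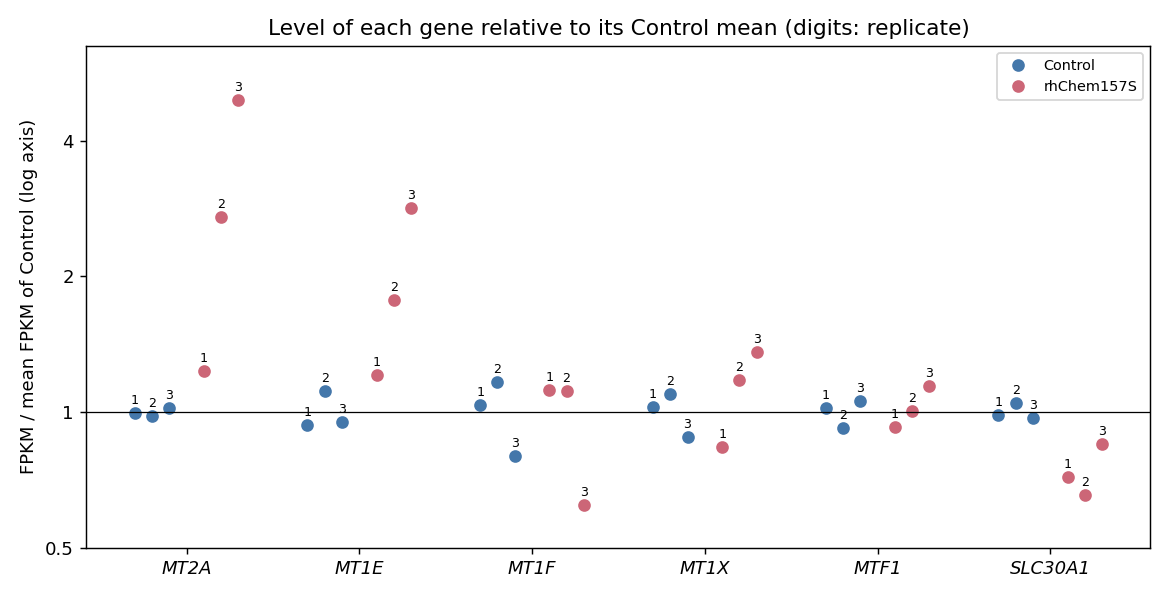
FPKM of the 6 tested genes divided by each gene's mean in Control (vertical axis, log scale), with Control libraries in blue and rhChem157S libraries in red and digits for replicate numbers. In library rhChem157S 3, MT2A is at 4.92, MT1E at 2.84, MT1X at 1.36 and MT1F at 0.622.

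MTF1, the zinc sensor, was at similar levels in both groups. Its FPKM was 5.6, 5.04 and 5.78 in Control libraries 1 to 3 and 5.08, 5.50 and 6.26 in rhChem157S libraries 1 to 3. The log2 fold change was 0.17 (standard error 0.13, 95% confidence interval -0.14 to 0.49; adjusted p = 0.458, edgeR), an interval that leaves out a change as large as the fitted value of MT1E. The RNA level says nothing of where the protein was or whether it held zinc.

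SLC30A1, which encodes the exporter ZnT1 of the plasma membrane, did not follow MT2A and MT1E. Its FPKM was 9.09, 9.67 and 8.95 in Control libraries 1 to 3 and 6.64, 6.05 and 7.83 in rhChem157S libraries 1 to 3. In FPKM the 3 treated libraries all lay under the Control range. After TMM scaling the CPM, counts scaled to library total, were 50.4 to 54.0 in Control and 36.6 to 51.4 with rhChem157S, so that the groups overlapped through library rhChem157S 3. The log2 fold change was -0.30 (standard error 0.14, 95% confidence interval -0.62 to 0.03; adjusted p = 0.247, edgeR), and DESeq2 gave an adjusted p of 0.245. Without rhChem157S 3 it was -0.46 with an adjusted p of 0.0353 from edgeR, in a fit that called 1.88% of 13521 genes as lower.

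Across the 8 genes, 6 passed the filter on low counts. Of these, 0 had an adjusted p under 0.05 with edgeR, where 4 of all 13311 genes (0.0301%) did. Before adjustment, 2 of the 6 genes (MT2A and MT1E) had p under 0.05 as higher and 0 as lower, beside 11.4% of all tested genes as higher and 11.4% as lower. DESeq2 called both as higher with an adjusted p under 0.05, where it called 3.75% of its 14382 genes as higher and 5.30% as lower. In CPM after TMM scaling the groups did not overlap in MT2A and MT1E, both higher, as in 16.5% of all tested genes, and 16% of all tested genes did not overlap as lower. In FPKM, which has no TMM factor, these shares were 7.36% higher and 25.1% lower, and MT2A and MT1E were still higher and SLC30A1 lower. The median log2 fold change of the 6 genes was 0.24, against 0.012 over all tested genes. With log2 fold changes ordered from most positive to most negative, MT2A ranked 61st of 13311 genes. By p, which counts both directions, it ranked 758th.

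**Figure D4:**
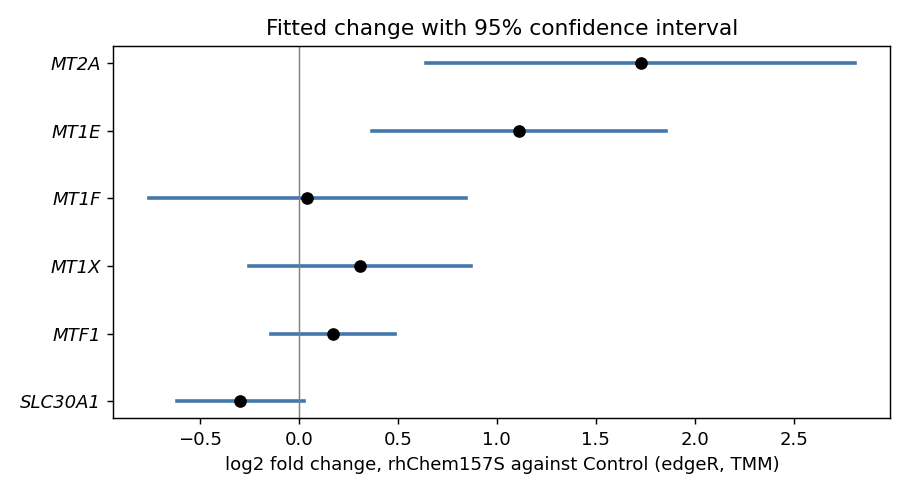
Fitted log2 fold change of rhChem157S against Control (horizontal axis, edgeR after TMM scaling) for the 6 tested genes; dots are estimates and bars are 95% confidence intervals. The intervals of MT2A (0.64 to 2.81) and MT1E (0.37 to 1.85) lie above 0 before any adjustment for the number of genes, and the other 4 include 0.

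By mean FPKM in Control the order was MT2A, MT1E, MT1X, SLC30A1, MTF1, MT1F, MT1M and MT1G, and no pair of neighbours in this order overlapped in their ranges over the 3 libraries. The order with rhChem157S was the same. There SLC30A1 overlapped with MTF1, and MT1M with MT1G.

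The genes whose log2 CPM followed that of MT2A most closely over the 6 libraries were MED1 (a subunit of Mediator), CEP170 (a centrosomal protein), MRPS35 (mitochondrial ribosome), STT3A (an oligosaccharyltransferase subunit) and SLMAP. Their Pearson r with MT2A was 0.997, 0.995, 0.995, 0.995 and 0.994. Of 13310 genes, 15 exceeded 0.99. Somewhat lower values were common over these 6 libraries, which fall into Control and treated groups. MT1E had r = 0.987 and was 33rd, and MT1X had 0.879 and was 1558th. MTF1 had 0.870, SLC30A1 -0.23 and MT1F -0.41. The changes behind these values differed in size, from a log2 fold change of 0.20 for MED1 to 0.81 for CEP170.

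The other zinc transporters carry zinc out of the cytoplasm (SLC30 family) or into it (SLC39 family). Of 10 further genes on the exporter list, 6 passed the filter, and 1 of the 6 had p under 0.05 before adjustment, as lower, beside 11.4% of all tested genes. This was SLC30A3 (ZnT3, known for loading zinc into synaptic vesicles), with an FPKM of 2.18 to 2.76 in Control and 1.5 to 2.01 with rhChem157S (log2 fold change -0.48, adjusted p = 0.188, edgeR). The median log2 fold change of the exporters was -0.051. Of 14 zinc importers 11 passed the filter, with a median of -0.047, and 2 had p under 0.05 before adjustment, both lower, beside 11.4% of all tested genes as lower. SLC39A4 (ZIP4, the importer of dietary zinc in the gut) had an FPKM of 3.13, 2.82 and 2.80 in Control libraries 1 to 3 and 1.92, 1.79 and 1.23 in rhChem157S libraries 1 to 3. All treated libraries of SLC39A4 were below all Control libraries. Of all tested genes, 25.1% were lower in this way in FPKM and 16% in CPM after TMM scaling. The log2 fold change of SLC39A4 was -0.70 (adjusted p = 0.126 from edgeR and 0.0228 from DESeq2). SLC39A8 (ZIP8, which carries zinc and manganese) had a log2 fold change of -0.40 (adjusted p = 0.134, edgeR). It was also lower in every treated library, beside the same shares of all tested genes. SLC39A6 (ZIP6) had a log2 fold change of 0.35 (adjusted p = 0.225, edgeR). Its groups overlapped in FPKM but not in CPM after TMM scaling, where 16.5% of all tested genes separated as higher. TMEM163 and SLC39A2 had at most 1 count in any library.

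Copper binds to metallothioneins too, and the genes of copper handling had 0 members with an adjusted p under 0.05 from edgeR. Of 10 genes 9 passed the filter, with a median log2 fold change of -0.024, and CP, which encodes ceruloplasmin, had at most 1 count in any library. Before adjustment 1 of the 9 had p under 0.05, as lower, beside 11.4% of all tested genes. This was COX17, a copper chaperone for cytochrome c oxidase. It was lower in every treated library in CPM after TMM scaling, as were 16% of all tested genes. Its log2 fold change was -0.37 (adjusted p = 0.211, edgeR). COMMD1 had 0.29 (adjusted p = 0.245, edgeR).

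Glucocorticoids induce MT2A in many cells, and the genes of this response were examined beside it. The filter kept 10 of 11 genes, and their median log2 fold change was -0.26, which was -0.072 without Control 3 and -0.13 without rhChem157S 3. The fitted log2 fold change was positive in 4 and negative in 6. Before adjustment 1 had p under 0.05 as higher and 3 as lower, beside 11.4% of all tested genes in each direction, and with edgeR 0 of the 10 had an adjusted p under 0.05. PER1, a clock gene induced by glucocorticoids, had an FPKM of 7.13, 6.78 and 8.59 in Control libraries 1 to 3 and 4.92, 4.35 and 3.49 in rhChem157S libraries 1 to 3 (log2 fold change -0.70, adjusted p = 0.0752 from edgeR and 9.68e-04 from DESeq2). TSC22D3, which encodes the glucocorticoid-induced leucine zipper, had 6.10, 5.89 and 4.91 FPKM in Control and 3.70, 3.33 and 1.42 FPKM in rhChem157S libraries 1 to 3 (log2 fold change -0.89, adjusted p = 0.156 from edgeR and 0.0422 from DESeq2). For PER1, TSC22D3 and KLF9 the treated libraries all lay under the Control range. Of all tested genes, 25.1% did so in FPKM and 16% in CPM after TMM scaling. KLF9 had a log2 fold change of -0.53 (adjusted p = 0.157, edgeR). ZFP36, which promotes decay of AU-rich messages, was the 1 member with p under 0.05 as higher, at 0.42 (adjusted p = 0.123 from edgeR and 0.0422 from DESeq2).

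The oxidant response genes, a further program that can accompany metallothioneins, had a median log2 fold change of 0.054 over 12 genes, which was -0.079 with library size alone, and -0.23 without rhChem157S 3. The fitted values ran from -0.46 to 1.29. The fitted value was positive in 8 of the 12 and negative in 4. Before adjustment 2 had p under 0.05, both lower, beside 11.4% of all tested genes as lower. TXNRD1, which encodes thioredoxin reductase, had a log2 fold change of -0.46 (adjusted p = 0.135 from edgeR and 0.0377 from DESeq2), and GCLC, the catalytic subunit for the first step of glutathione synthesis, had -0.30 (adjusted p = 0.208, edgeR). Of the 7 heat shock genes, 1 had p under 0.05 as higher, beside 11.4% of all tested genes. The fitted values of the 7 ran from 0.083 to 0.75 with a median of 0.26, which was 0.12 with library size alone and 0.075 without rhChem157S 3. HSPA8, a constitutive chaperone, had an FPKM of 452, 496 and 459 in Control libraries 1 to 3 and 507, 579 and 1042 in rhChem157S libraries 1 to 3 (log2 fold change 0.75, adjusted p = 0.193, edgeR). As in MT2A, library rhChem157S 3 held the highest value. DNAJB1 had 0.18 (adjusted p = 0.328, edgeR).

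**Figure D5:**
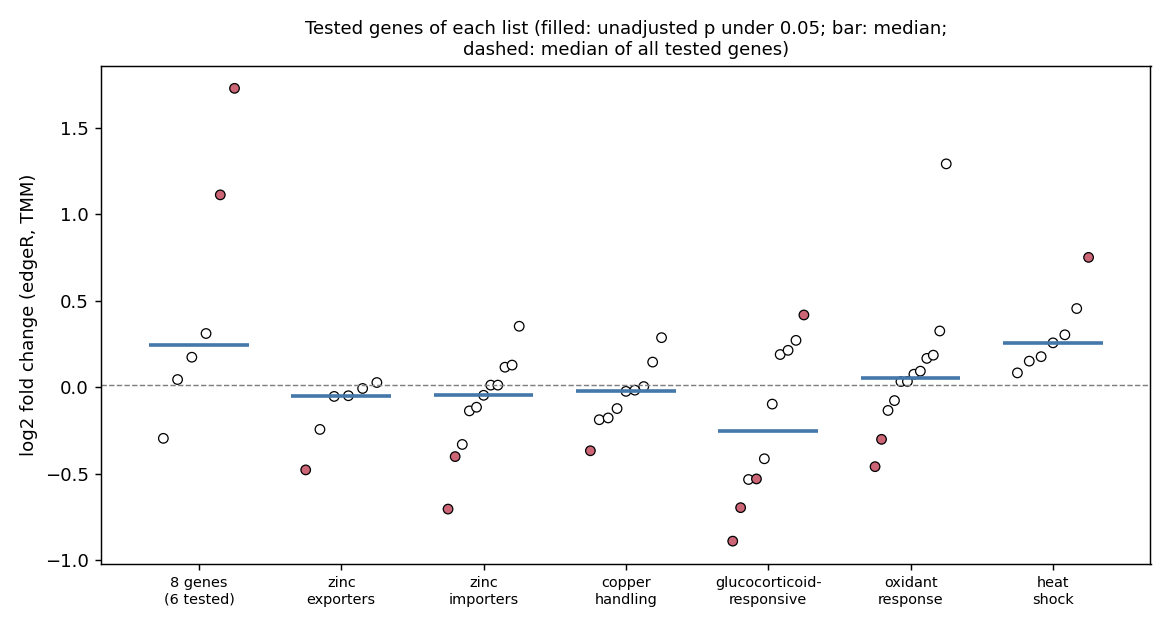
Log2 fold change of every tested gene (vertical axis, edgeR after TMM scaling) in the 8 genes and in 6 lists of related genes; filled points have p under 0.05 before adjustment, blue bars are list medians and the dashed line is the median of all tested genes, 0.012. MT2A (1.73) and MT1E (1.11) stand at the top of the first column, and the filled points of the zinc transporter columns lie below 0.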

How the data were processed

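RNA-seq libraries of 12Z cells, 3 Control and 3 rhChem157S, were used as the authors deposited them. The authors trimmed reads with fastp, aligned them to GRCh38.p13 with HISAT2 and deposited raw read counts per gene from HTSeq-count; the strand setting and annotation release are not given in the sources used here. They also deposited FPKM, which equalled count over a fixed gene length and library total in 15437 of 15437 genes compared (tolerance 1%).

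Counts were fitted for all genes in R 4.3.3 with edgeR 4.0.16 (TMM, filterByExpr, legacy quasi-likelihood, two-sided, no covariate), adjusted over 13311 genes. Each fit was repeated in DESeq2 1.42.0 and, for FPKM, in limma 3.58.1 after adding a pseudocount of 1 or 0.1 and taking log2, and edgeR was repeated with other scaling, filter and quasi-likelihood settings, with a replicate block, and with single libraries omitted; DESeq2 with each library left out was added after the data were seen. With 3 against 3, an exact two-sided permutation test cannot go below p = 0.10. The tests were checked on simulated counts with 200 changed genes. Of these edgeR recovered 179, with 9 false calls. DESeq2 recovered 185, with 55 false calls. The simulated counts were drawn with dispersions that edgeR had estimated. The check therefore cannot say how many calls of either tool are false in the real data. Members and lists were chosen with earlier results of these data known. Named are the 8 genes, other metallothioneins in the tables, up to 4 genes per related list with the smallest p among those whose groups did not overlap in CPM, the 5 genes most correlated with MT2A, and, to check the cell type, marker genes. The mitochondrially encoded genes and protein sequences were not used here.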

Additional observations from a re-analysis of the deposited data

How the results depend on the processing

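MT2A, MT1E, MT1X and MTF1 were higher and SLC30A1 lower under each alternative. MT1F reversed, at -0.073 with library size only, -0.077 and -0.10 with limma on log2(FPKM + 1) and log2(FPKM + 0.1), and at its lowest -0.094 and highest 0.24 in edgeR fits that omit 1 library. In DESeq2 fits, added after the data were seen, it was -0.095, -0.057 and -0.077 without Control replicate 3, rhChem157S replicate 1 and rhChem157S replicate 2. Without those added fits the adjusted p ranged from 0.0266 to 0.377 for MT2A and from 0.00780 to 0.377 for MT1E, and with them from 5.53e-14 and 6.70e-07. The DESeq2 call was lost in 5 of the 6 added fits for MT2A and in 3 for MT1E. Members with an adjusted p under 0.05 numbered 2 with DESeq2 and 0 to 2 with one library left out (2 without rhChem157S 1, 1 without rhChem157S 3), against 0 in the edgeR test of all 6 libraries. Over all genes the calls, 4 with that test, were 1302 with DESeq2, 17 without the low-count filter, 15 with edgeR's newer dispersion setting, 179 and 23 with limma on log2(FPKM + 1) and log2(FPKM + 0.1), and 0 to 844 with one library left out (844 without rhChem157S 1, 415 without rhChem157S 3). In the edgeR fits with 0 calls, 1666 to 2190 genes had an unadjusted value under 0.05.

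Same-numbered libraries were not paired by the labels, and their deviations correlated at 0.241, 0.00147 and 0.247. The replicate block gave 1 call over all genes and 0 among the members. Of the 5 genes most like MT2A, 1 was among the 50 highest by Spearman and 2 to 5 with one library left out. Library size only moves the median of all genes to -0.12, and the medians to -0.18 for zinc exporters, -0.18 for zinc importers, -0.15 for copper handling and -0.39 for glucocorticoid-responsive genes. With one library left out the medians ran from -0.063 to -0.0020 for zinc importers, -0.30 to -0.072 for glucocorticoid-responsive genes and -0.23 to 0.17 for oxidant response. The cause of these shifts was not tested. Depth limits MT1G, MT1M, MT1H and MT3.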
